A study of Mus musculus with 62 samples.

Results

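GABAergic interneurons make and release the inhibitory transmitter GABA, and 10 genes that mark them were followed here: Gad1, Gad2, Slc32a1, Pvalb, Sst, Vip, Cck, Npy, Calb2 and Lhx6. They were chosen by symbol, and all 10 were found among the 27179 genes of the deposited tables. Gad1 and Gad2 encode the enzymes that convert glutamate to GABA, and Slc32a1 encodes the transporter that loads GABA into synaptic vesicles. Pvalb and Calb2 encode the calcium-binding proteins parvalbumin and calretinin. Sst, Vip, Cck and Npy encode the neuropeptides somatostatin, vasoactive intestinal peptide, cholecystokinin and neuropeptide Y, and Lhx6 encodes a transcription factor of interneurons born in the medial ganglionic eminence.

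Interneurons of the cortex and hippocampus are born in the ganglionic eminences of the embryonic forebrain and migrate to their final layers. Lhx6 is switched on as cells of the medial eminence leave the cell cycle and is needed for the parvalbumin and somatostatin classes, whereas the Vip class comes from the caudal eminence. Most of these markers are not private to interneurons: Cck is also made by pyramidal cells, Calb2 by hilar mossy cells and thalamic neurons, and Gad1, Gad2 and Slc32a1 by striatal projection neurons.

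RNA-seq libraries were made from the forebrain of embryos at E17.5 (embryonic day; 8 euploid and 7 Ts65Dn, with no sex in the labels) and from the hippocampus of mice 6 weeks old. The adult groups were euploid, Ts65Dn and Ts65Dn;Brwd1+/-, with 8, 7 and 8 males and 8 females of each genotype. Ts65Dn mice, a model of Down syndrome, carry in every cell an extra chromosome with parts of chromosomes 16 and 17, Brwd1 among them. Ts65Dn;Brwd1+/- mice carry the same extra chromosome and a mutant repro5 allele of Brwd1, a chromatin reader, which lowers its functional copies from the trisomic number to the euploid number. All groups came from a mixed DBA/2J x B6EiC3Sn/J background with no treatment, and the Brwd1+/- littermates of the cross were not analysed here. None of the 10 genes lies in the triplicated segments, although Sst lies on chromosome 16. The comparisons ask whether the trisomy, and the copy number of Brwd1 within it, went with a different RNA level of interneuron genes before birth and in the adult of either sex.

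The libraries held 14.9 to 62.6 M counted reads at E17.5 and 33.6 to 137.1 M in the adult, and levels are given as CPM, counts scaled to a fixed library total after TMM normalisation. The triplicated genes stood at the level their label implies in every E17.5 library and in all but 4 of the 47 adult ones. In those 4 (male Ts65Dn B145, male Ts65Dn;Brwd1+/- B138 and T35, female Ts65Dn;Brwd1+/- B136) they stood at the euploid level, and in 2 further libraries (male Ts65Dn B88 and female euploid B85) the sex-linked genes went against the label. All 6 stayed in the comparisons, and the values without them are given beside some of the results they touch. Slc17a7, a gene of excitatory neurons, had group medians of 1857 to 2076 CPM in the adult, while the choroid plexus gene Ttr ran from 10.7 to 5746 CPM among adult libraries.

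The promoters of Sst, Vip and Npy are shown because the levels of these 3 neuropeptide genes moved together across adult libraries. This was not particular to the 3, since Pvalb and Lhx6 moved with each of them as well. Each line holds the 120 bases before the start site (RefSeq, GRCm38.p6) on the strand of the gene, with matches to a cAMP response element (TGACGTCA) or the TATA box motif (TATAAA), searched on both strands, in capitals.
Sst, minus strand, chr16:23890845-23890964: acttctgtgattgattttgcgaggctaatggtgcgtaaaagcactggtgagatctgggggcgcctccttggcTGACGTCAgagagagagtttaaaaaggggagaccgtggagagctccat
Vip, plus strand, chr10:5639098-5639217: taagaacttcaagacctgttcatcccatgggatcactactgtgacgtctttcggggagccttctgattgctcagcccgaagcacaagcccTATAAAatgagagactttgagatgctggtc
Npy, plus strand, chr6:49822590-49822709: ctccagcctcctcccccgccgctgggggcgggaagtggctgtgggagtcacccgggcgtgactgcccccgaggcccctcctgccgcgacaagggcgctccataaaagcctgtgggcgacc
The cAMP response element stood 48 bases before the Sst start, and 1 of the 12 windows that RefSeq gave for 9 members held it. Over all 32851 windows of 300 bases (250 before to 50 after the start), 1.79% held it. The letters TATAAA were in 3 of the 12 windows, against 13.6% of all windows. They stood 157, 147 and 30 bases before the Vip start, farther than 120 bases before the Gad1 start and 3 bases after 1 of the Lhx6 starts. Such matches describe letters only, and binding was not measured. Calb2 had no window in the table.

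Sst and Npy had the highest levels per length in the euploid E17.5 forebrain, and Cck and Sst in the euploid adult hippocampus. Median RPKM (reads per kilobase of exon, scaled to depth) over the 8 euploid embryos was 151.4 for Sst, 79.1 for Npy, 45.7 for Slc32a1, 45.4 for Calb2, 27.5 for Gad1, 21.2 for Gad2, 20.6 for Lhx6, 13.6 for Cck, 0.567 for Pvalb and 0.114 for Vip. Neighbours in that order overlapped over the embryos except Npy with Slc32a1, Calb2 with Gad1 and Cck with Pvalb. Over the 16 euploid adults, median RPKM was 219.5 for Cck, 193.7 for Sst, 55.5 for Npy, 44.96 for Gad1, 38.5 for Slc32a1, 31.3 for Pvalb, 27.9 for Gad2, 23.7 for Calb2, 4.43 for Lhx6 and 4.01 for Vip. Here the neighbours overlapped except Sst with Npy and Calb2 with Lhx6.

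Side by side, the euploid median of Pvalb was 0.591 CPM at E17.5 and 32.6 CPM in the adult, that of Vip 0.387 and 13.6 CPM, and that of Cck 17.7 and 286.4 CPM. In the adult these 3 genes were 55.1-fold, 35.2-fold and 16.2-fold higher. Lhx6 went the other way, with 98.8 CPM in the embryo and 21.3 CPM in the adult, and Calb2 had 79.2 and 41.3 CPM. Age and brain region cannot be told apart here and the tables were scaled separately, so that no test was made.

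In E17.5 forebrain, Npy and Lhx6 had lower medians in Ts65Dn than in euploid embryos, Gad2 was slightly lower and Pvalb higher, and none of these differences passed the threshold. A gene was called where edgeR's quasi-likelihood test gave a p-value under 0.1 after Benjamini-Hochberg adjustment over all tested genes. Of the 10 members 0 were called, beside 1.35% of the 16395 genes tested. DESeq2 with its own size factors also called 0 members, beside 3.58% of all tested genes. At an unadjusted p under 0.05, edgeR gave 3 of the 10 members and 1981 of all tested genes (12.1%). The members' median log2 fold change was -0.15, against -0.01 over all tested genes. In bulk tissue, fewer cells of a type and less RNA per cell cannot be told apart.

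Gad1 (gene 14415, chr2:70561303-70602014) ran from 133.7 to 218.6 CPM in euploid embryos, median 210.4, and from 175.97 to 225.6 CPM in Ts65Dn embryos, median 204.9. The groups overlapped over nearly their whole range, and euploid embryo 4 stood below all others. The log2 fold change was 0.06 (95% interval -0.14 to 0.25). Gad2 (gene 14417, chr2:22621015-22693877) ran from 107.8 to 143.4 CPM in euploid embryos, median 124.3, and from 103.5 to 125.4 CPM in Ts65Dn embryos, median 109.8. The Ts65Dn embryos lay in the lower part of the euploid range or below it. The log2 fold change of Gad2 was -0.16 (95% interval -0.30 to -0.02, adjusted p = 0.337, edgeR). Slc32a1 (gene 22348, chr2:158607260-158615747) ran from 85.05 to 154.7 CPM, median 127.7, and in Ts65Dn from 72.5 to 153.4 CPM, median 143.9. These groups overlapped as well, with a log2 fold change of 0.06 (95% interval -0.33 to 0.45).

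Lhx6 (gene 16874, chr2:36081950-36105992) spanned 73.2 to 115.9 CPM in euploid embryos, median 98.8. In Ts65Dn embryos 1 to 7 it was at 119.0, 52.6, 54.8, 95.4, 45.4, 63.7 and 9.06 CPM. Thus 5 of the 7 Ts65Dn embryos lay below every euploid embryo, embryo 7 far below, while embryos 1 and 4 lay within or above the euploid range. The log2 fold change was -0.60 (95% interval -1.37 to 0.16, adjusted p = 0.5002, edgeR), and -0.40 without embryo 7.

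Npy (gene 109648, chr6:49822710-49829507) spanned 34.97 to 57.8 CPM in euploid embryos, median 44.8. In Ts65Dn embryos 1 to 7 it was at 59.3, 29.5, 30.3, 37.7, 21.1, 34.8 and 15.2 CPM. The same 5 embryos as for Lhx6 lay below the euploid range, and embryo 1 lay above it. The log2 fold change was -0.51 (95% interval -0.98 to -0.05, adjusted p = 0.371, edgeR). Without Ts65Dn embryo 1, the highest of its group, it was -0.72 and Npy was called (adjusted p = 0.0681, edgeR). Leaving out the embryo farthest against the difference widens it by itself, so this call adds no support.

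Pvalb (gene 19293, chr15:78191112-78206400) was scarce before birth, with 0.280 to 1.42 CPM in euploid embryos, median 0.591, and 0.584 to 3.21 CPM in Ts65Dn embryos, median 1.05. Behind these levels stood 6 to 61 reads per euploid and at least 29 per Ts65Dn library, and the ranges overlapped. The log2 fold change was 1.09 (95% interval 0.22 to 1.97, adjusted p = 0.303, edgeR). Vip (gene 22353, chr10:5639193-5647617) had 3 to 72 reads in euploid and 2 to 36 in Ts65Dn libraries, or 0.174 to 3.64 and 0.110 to 0.697 CPM. Euploid embryo 3 was at 3.64 CPM, against a euploid median of 0.387 CPM. The interval of Vip, -2.04 to 0.45 around a log2 fold change of -0.79, was the widest of the members.

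Sst (gene 20604, chr16:23889573-23891342) ran from 44.3 to 137.4 CPM in euploid embryos, median 109.1, and from 81.7 to 121.2 CPM in Ts65Dn embryos, median 109.4. The medians nearly coincided, and the log2 fold change was 0.10 (95% interval -0.30 to 0.50). Cck (gene 12424, chr9:121489824-121495694) ran from 12.9 to 21.9 CPM and from 11.3 to 18.99 CPM, and Calb2 (gene 12308, chr8:110142526-110168212) had medians of 79.2 and 74.8 CPM with highest libraries at 116.4 and 121.5 CPM. Both overlapped between groups, with log2 fold changes of -0.19 for Cck (95% interval -0.47 to 0.09) and -0.13 for Calb2 (-0.60 to 0.34).

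**Figure D1:**
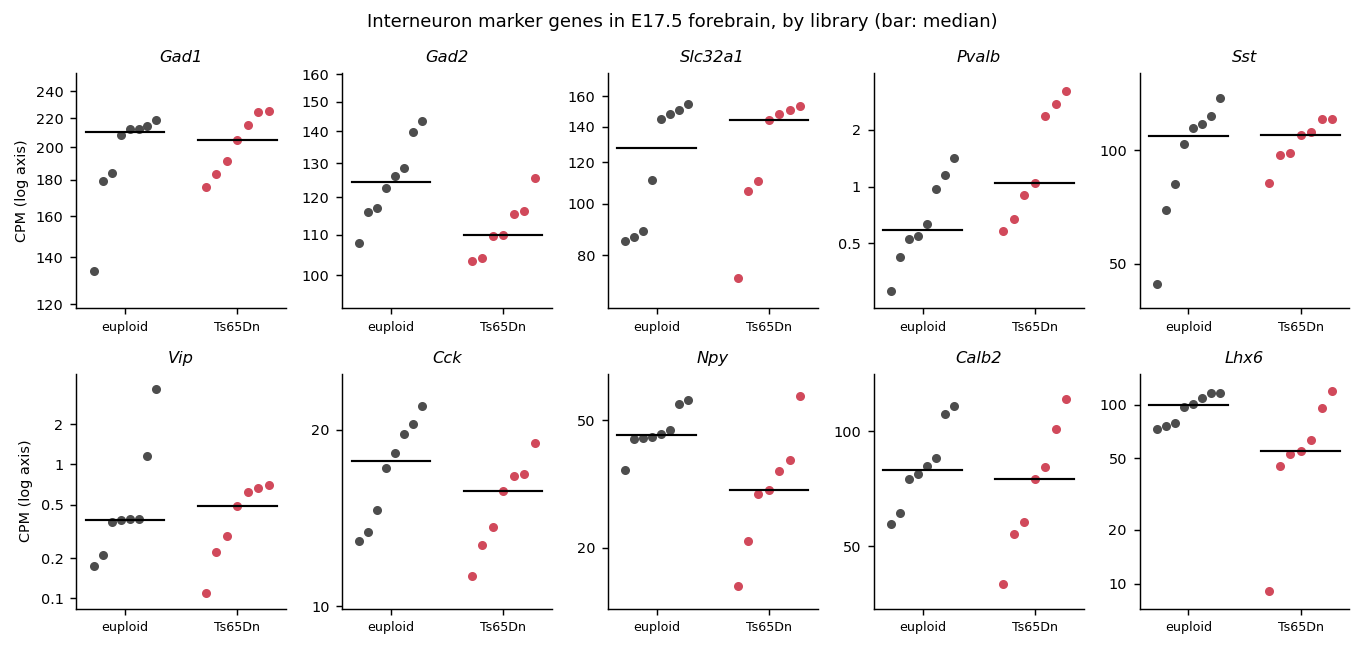
CPM (log axis) of each member in E17.5 forebrain, with 1 point per library, 8 euploid and 7 Ts65Dn, and a bar at the group median. For Lhx6 and Npy, 5 of the 7 Ts65Dn libraries lay below the euploid range, down to 9.06 and 15.2 CPM, and the other members overlapped more fully.

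Markers of other forebrain cells also varied among the embryos. Summed over 10 genes of excitatory neurons, the level was 981 to 2042 CPM in euploid and 540 to 1722 CPM in Ts65Dn embryos, lowest in embryo 7. Tcf7l2, a transcription factor of thalamic neurons, ran from 58.8 to 301.6 CPM in euploid embryos and was at 520.6 CPM in Ts65Dn embryo 5 and 480.3 CPM in embryo 7. In embryo 7, Nkx2-1 and Lhx8, transcription factors of the ventral forebrain, were at 5.30 and 0.387 CPM, against 22.2 to 72.6 and 13.5 to 27.985 CPM in euploid embryos. Cck was also lowest in embryo 7, at 11.3 CPM against 12.9 to 21.9 CPM in euploid embryos. Several other members did not follow in that embryo. Gad1 was at 225.6 CPM, the highest of all 15 libraries, and Vip at 0.697 CPM was the highest of the Ts65Dn group. Sst (120.7 CPM) and Slc32a1 (143.9 CPM) lay within the euploid range. The low values of embryo 7 thus covered Lhx6, Npy, Cck, Nkx2-1, Lhx8 and the excitatory list, and not the GABAergic markers as a whole.

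Across the 15 E17.5 libraries with group means removed, Npy rose with the mean of the excitatory list (r = 0.86, rho = 0.84, permutation p adjusted over the 160 relations of members with lists 0.0232 and 0.0125, r = 0.83 without the 2 libraries farthest from the median). Lhx6 also rose with it (r = 0.90, rho = 0.71, adjusted permutation p = 0.0356 and 0.0590), and r fell to 0.63 without the 2 farthest libraries. Calb2 rose with the other thalamic and habenular genes (r = 0.86, rho = 0.88, adjusted permutation p = 0.0139 and 0.0104, r = 0.83 without the 2 farthest). With the mean of the thalamic and habenular list as a covariate, a setting chosen after seeing the data, the log2 fold changes were -0.58 for Npy (adjusted p = 0.147, edgeR), -0.74 for Lhx6 (adjusted p = 0.329, edgeR) and 0.84 for Pvalb. No fit had as a covariate the excitatory list, which Npy and Lhx6 followed. The part of dissection in the differences of Npy and Lhx6 was not tested.

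**Figure D2:**
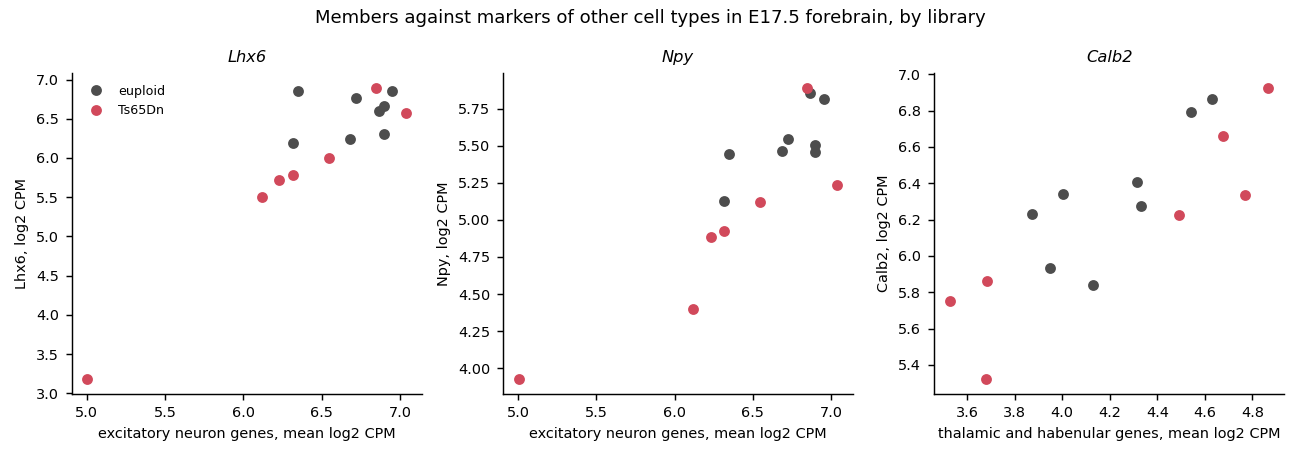
Log2 CPM of Lhx6 and Npy against the mean log2 CPM of 10 excitatory neuron genes, and of Calb2 against thalamic and habenular genes, in the 15 E17.5 libraries (grey euploid, red Ts65Dn). Ts65Dn embryo 7 is the point at the lower left for Lhx6 and Npy, at an excitatory mean of 5.005.

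In the gene lists of the pathway at E17.5, some of which also count members, few genes were called, beside the 1.35% of all tested genes. Of 8 genes of GABA synthesis, transport and breakdown, with Gad1, Gad2 and Slc32a1 counted, 1 rose, the GABA transporter Slc6a13 (log2 fold change 0.80, adjusted p = 0.0464, edgeR). Of 19 interneuron transcription factors, with Lhx6 counted, 1 fell, Npas1 (-0.42, adjusted p = 0.0535, edgeR). The median of this list, Lhx6 included, was -0.42, against -0.01 over all tested genes. Of 26 tested subtype genes, 1 rose, the triplicated kainate receptor gene Grik1 (0.65, adjusted p = 0.0535, edgeR). No gene was called by edgeR among 16 peptide and processing genes, with Sst, Vip, Cck and Npy counted, or among 12 peptide receptors. At an unadjusted p under 0.05 there were 1 peptide gene, which was the member Npy, and 0 receptors. Slc6a13 is also a gene of the meninges and choroid plexus, and the summed choroid plexus list stood at 58.6 to 1451 CPM in euploid and 692 to 1603 CPM in Ts65Dn embryos. The astrocyte gene Gja1 was higher in Ts65Dn (0.59, adjusted p = 0.0330, edgeR). With each of the 15 libraries left out in turn, Gja1 was called 15 times, Slc6a13 14 times, Grik1 10 times and Npas1 9 times.

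In adult hippocampus, the members varied in different degrees among the 47 libraries. The coefficient of variation was 48.4% for Calb2, 24.1% for Vip, 22.3% for Sst, 18.99% for Pvalb, 18.9% for Gad1, 18.3% for Slc32a1, 15.8% for Npy, 14.02% for Lhx6, 13.9% for Cck and 12.8% for Gad2. Over the 11 adult comparisons, 0 of 110 member values were called by edgeR and 13 had an unadjusted p under 0.05, where 3.52% to 15.4% of all tested genes did by comparison. Comparisons within a sex share control libraries and are not independent of each other.

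Among the genes of GABA synthesis and packaging, the 6 adult groups overlapped almost fully. Gad1 had medians of 339.2, 350.7 and 362.7 CPM in male euploid, Ts65Dn and Ts65Dn;Brwd1+/- mice and 353.0, 353.8 and 348.3 CPM in the females. Female euploid B85, a library against its label, stood alone at 769.6 CPM. Without B85, the log2 fold change of Gad1 between female Ts65Dn and euploid turned from -0.15 to 0.07. Gad2 ran from 139.3 to 238.8 CPM and Slc32a1 from 83.7 to 182.6 CPM over all groups.

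Calb2 was lower in most male Ts65Dn mice than in the other male groups. It ran from 20.8 to 61.6 CPM in euploid males, median 46.9, from 15.8 to 60.5 CPM in Ts65Dn males, median 21.7, and from 23.6 to 54.9 CPM in Ts65Dn;Brwd1+/- males, median 44.0. The highest Ts65Dn male was B88, whose sex-linked genes went against its label, and the groups overlapped. The females had medians of 33.8, 43.2 and 30.1 CPM in the same order of genotypes, with a range of 12.1 to 106.2 CPM in the euploid group. Pvalb, the other calcium-binding gene, had medians of 30.0 to 33.9 CPM in the 6 groups.

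Vip had its highest medians in Ts65Dn;Brwd1+/- mice of either sex. It ran from 9.30 to 17.4 CPM in euploid males, median 15.1, from 9.37 to 18.6 CPM in Ts65Dn males, median 13.8, and from 14.8 to 22.2 CPM in Ts65Dn;Brwd1+/- males, median 18.3. In females it ran from 6.77 to 17.9 CPM, median 12.5, from 11.54 to 18.02 CPM, median 15.8, and from 11.7 to 25.9 CPM, median 17.47. Every pair of groups overlapped.

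The other peptide genes and Lhx6 differed little between groups. Sst had medians of 132.0 to 147.1 CPM, Cck of 271.3 to 300.7 CPM, Npy of 31.2 to 34.6 CPM and Lhx6 of 19.03 to 22.8 CPM. Female euploid B125 was the highest of its group for Sst (256.9 CPM), Cck (370.8 CPM), Npy (44.7 CPM), Vip (17.9 CPM), Pvalb (56.2 CPM) and Lhx6 (25.4 CPM), and female Ts65Dn;Brwd1+/- B176 was the highest of its group for Sst (247.6 CPM), Cck (438.6 CPM), Npy (48.9 CPM), Vip (25.9 CPM) and Pvalb (52.9 CPM).

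**Figure D3:**
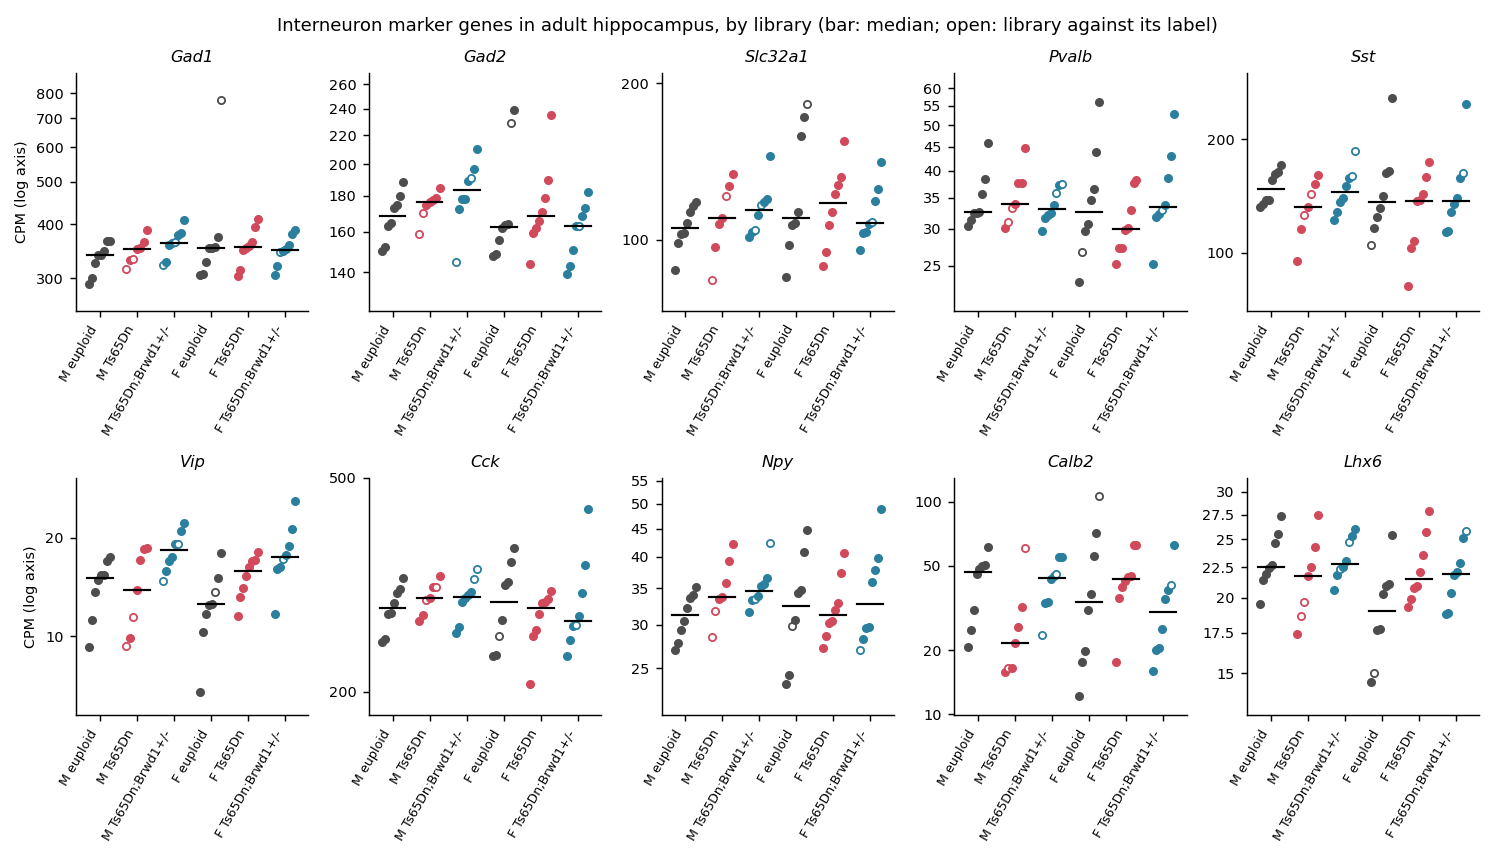
CPM (log axis) of each member in adult hippocampus, with 1 point per library in the 6 groups by sex and genotype, a bar at the group median and open points for the 6 libraries against their labels. The Vip medians are highest in Ts65Dn;Brwd1+/- mice of either sex (18.3 and 17.47 CPM), and the open point of Gad1 at 769.6 CPM is female euploid B85.

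In males, Ts65Dn vs. euploid, 0 of 10 members were called by edgeR, beside 0.795% of 16851 genes, and 2 had an unadjusted p under 0.05, as did 8.91% of all tested genes. Calb2 was lower, with a log2 fold change of -0.62 (95% interval -1.22 to -0.02, adjusted p = 0.544, edgeR), and Npy was higher, with 0.16 (95% interval 0.00 to 0.32, adjusted p = 0.544, edgeR). Without the libraries against their labels these values were -0.90 for Calb2 (adjusted p = 0.126, edgeR) and 0.24 for Npy (adjusted p = 0.133, edgeR). Without Ts65Dn B88 alone, the highest of its group for Calb2, this gene was called, with -0.97 (adjusted p = 0.0811, edgeR). Leaving out that library, which also went against its label, widens the difference by itself.

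For male Ts65Dn;Brwd1+/- vs. Ts65Dn, edgeR called 0 of 10 members and 0% of all tested genes. At an unadjusted p under 0.05 it gave 2 members and 1261 genes (7.48%). DESeq2 with its own size factors called 0 members, beside 0.00593% of all tested genes. Calb2 was higher by 0.63 (95% interval 0.03 to 1.23, adjusted p = 0.648, edgeR) and Vip by 0.38 (95% interval 0.06 to 0.69, adjusted p = 0.626, edgeR), both on the log2 scale. Without the libraries against their labels these were 0.99 for Calb2 (adjusted p = 0.429, edgeR) and 0.27 for Vip. Against euploid males, 0 of 10 members were called, beside 0.576% of all tested genes, and 3 had an unadjusted p under 0.05 (10.1% of all tested genes). These were Vip (0.36), Npy (0.18) and Gad1 (0.11), with adjusted p of 0.408, 0.418 and 0.489 by edgeR. They include B138 and T35, whose triplicated genes stood at the euploid level, and values without them are not given. B138 was the highest of its group for Npy (42.3 CPM), while T35 was the lowest for Vip (14.8 CPM) and Gad1 (321.3 CPM).

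In females, Ts65Dn vs. euploid, 0 of 10 members were called by edgeR, beside 3.17% of 17146 genes, and 1 had an unadjusted p under 0.05, a smaller share than the 15.4% of all tested genes. This was Lhx6, higher by 0.23 on the log2 scale (95% interval 0.02 to 0.44, adjusted p = 0.267, edgeR). Without euploid B125, the highest of its group for Lhx6, the difference of Lhx6 was 0.31 and was called (adjusted p = 0.0694, edgeR). Leaving out such a library widens the difference by itself, so this call adds no support. Female Ts65Dn;Brwd1+/- vs. Ts65Dn gave 0 of 10 members and 0% of all tested genes by edgeR, with 0 members and 604 genes at an unadjusted p under 0.05. DESeq2 with its own size factors gave 0 members there, beside 0.0817% of all tested genes. The log2 fold change of Calb2 was -0.43 (95% interval -1.19 to 0.33) and that of Vip 0.25 (-0.07 to 0.57).

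For female Ts65Dn;Brwd1+/- vs. euploid, Vip was higher by 0.53 on the log2 scale (95% interval 0.21 to 0.84, adjusted p = 0.181, edgeR). With 0 of 10 members called beside 0.729% of all tested genes, this was the smallest unadjusted p-value of a member in any of the 12 comparisons. DESeq2 with its own size factors called Vip (adjusted p = 0.0623), beside 1.77% of all tested genes. In the fit without euploid B125, the highest of its group for Vip, Vip was called (0.62, adjusted p = 0.0335, edgeR). The same held without Ts65Dn;Brwd1+/- B181, the lowest of its group (0.60, adjusted p = 0.0859, edgeR). Leaving out either library widens the difference by itself, so these 2 calls add no support. Without the libraries against their labels Vip was at 0.55 (adjusted p = 0.224, edgeR).

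**Figure D4:**
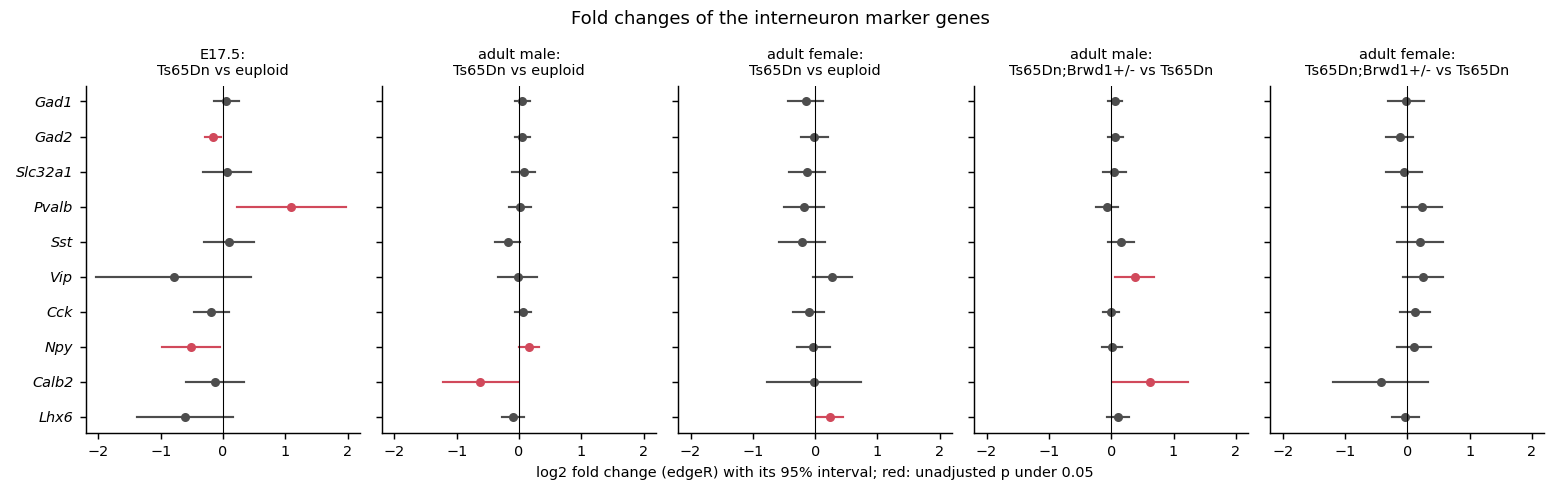
Log2 fold changes of the 10 members by edgeR with 95% intervals in 5 comparisons, with red points for an unadjusted p under 0.05. At E17.5, Gad2 (-0.16), Npy (-0.51) and Pvalb (1.09) are red, and in adult males Calb2 is at -0.62 in Ts65Dn vs. euploid and at 0.63 in Ts65Dn;Brwd1+/- vs. Ts65Dn.

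Both sexes together gave 0 of 10 members for Ts65Dn vs. euploid, beside 3.4% of 17427 genes, with Sst lowest in p (log2 fold change -0.19, adjusted p = 0.466, edgeR). For Ts65Dn;Brwd1+/- vs. Ts65Dn in both sexes, 0 members and 0% of all genes were called by edgeR, while 1 member and 891 genes (5.11%) had an unadjusted p under 0.05. That member was Vip, higher by 0.31 on the log2 scale (95% interval 0.08 to 0.53, adjusted p = 0.857, edgeR), and by 0.26 without the libraries against their labels.

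Between female and male Ts65Dn mice, 0 of 10 members were called, beside 0.00598% of 16719 genes. Calb2 was higher in the females by 0.69 on the log2 scale (95% interval 0.02 to 1.36, adjusted p = 0.978, edgeR), and by 0.96 without the libraries against their labels. The test of whether the genotype difference itself differed between the sexes called 0 members and 0% of all genes for Ts65Dn vs. euploid, with 1 member and 1935 genes at an unadjusted p under 0.05, and 0 members and 0% for Ts65Dn;Brwd1+/- vs. Ts65Dn, with 1 member and 650 genes. For the former the member was Lhx6 (0.34 higher in females, adjusted p = 0.343, edgeR), and for the latter Calb2 (-1.06, 95% interval -2.04 to -0.08, adjusted p = 0.9999, edgeR). DESeq2 with its own size factors called 0 members in both, beside 0.539% of all genes for the former and 0.00574% for the latter.

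The study's own methods removed unwanted variation with RUVr, and the number of factors was not stated. With 3 such factors edgeR made 17 calls of members over the 12 comparisons. At E17.5 they were Gad2 (-0.16, adjusted p = 0.0363), Npy (-0.59, adjusted p = 0.00121) and Pvalb (1.05, adjusted p = 0.0444), where 22.1% of all genes were called. In males, Calb2 was called for Ts65Dn vs. euploid (-0.71, adjusted p = 0.0205) beside 4.63% of all genes, and Calb2 (0.74, adjusted p = 0.0224) and Vip (0.42, adjusted p = 0.00513) for Ts65Dn;Brwd1+/- vs. Ts65Dn beside 3.48%. For male Ts65Dn;Brwd1+/- vs. euploid they were Gad1 (0.11, adjusted p = 0.0626) and Vip (0.37, adjusted p = 0.0056) beside 4.97%. In females, Lhx6 (0.24, adjusted p = 0.0210) and Vip (0.31, adjusted p = 0.0173) were called for Ts65Dn vs. euploid beside 23.5%, and Lhx6 (0.22, adjusted p = 0.0415) and Vip (0.54, adjusted p = 0.000374) for Ts65Dn;Brwd1+/- vs. euploid beside 18.6%. Calb2 was called between female and male Ts65Dn mice (0.76, adjusted p = 0.0169) beside 0.79%, and Vip for Ts65Dn;Brwd1+/- vs. Ts65Dn in both sexes (0.32, adjusted p = 0.00149) beside 6.81%. Sst was called for Ts65Dn vs. euploid in both sexes (-0.18, adjusted p = 0.0797) beside 14.6%, and Lhx6 (0.36, adjusted p = 0.0129) and Vip (0.37, adjusted p = 0.0471) for the sex difference of Ts65Dn vs. euploid beside 13.2%. The fold changes were close to those without factors, while the share of all genes called was larger in each of these comparisons. RUVr estimates its factors from the residuals of the same libraries.

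In the gene lists of the pathway in the adult, the calls were few. In female Ts65Dn vs. euploid, 4 of 28 interneuron subtype genes rose and 0 fell, where 333 of all 17146 tested genes rose and 3.17% were called in either direction, among them the potassium channel gene Kcnc2 (log2 fold change 0.89, adjusted p = 0.00705, edgeR), the cannabinoid receptor gene Cnr1 (0.42, adjusted p = 0.0155, edgeR) and Grik1 (0.53, adjusted p = 0.0243, edgeR). Of 18 tested interneuron transcription factors, with Lhx6 counted, 1 rose, Npas3 (0.27, adjusted p = 0.0802, edgeR), which was named after its value was seen. Without the libraries against their labels Npas3 was not called (0.28, adjusted p = 0.114, edgeR), and it was called in 16 of 24 fits that left out 1 library. In female Ts65Dn;Brwd1+/- vs. euploid, the subtype genes Grik1 (0.58, adjusted p = 0.0186, edgeR) and Rgs4 (0.43, adjusted p = 0.0454, edgeR) were higher. The median of the subtype list in female Ts65Dn vs. euploid was 0.09, against -0.02 over all tested genes. In both sexes together Cnr1 (0.28, adjusted p = 0.00176, edgeR) and Grik1 (0.41, adjusted p = 0.0151, edgeR) rose, and the VIP receptor gene Vipr2 fell (-1.20, adjusted p = 0.0953, edgeR). Without the libraries against their labels Vipr2 was at -0.06 (adjusted p = 0.935, edgeR). For Ts65Dn;Brwd1+/- vs. Ts65Dn, no gene of any list was called by edgeR in either sex.

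Genes of other cells that were called in the adult stood beside these. In female Ts65Dn vs. euploid, the activity-regulated genes Fos (-0.94, adjusted p = 0.0366, edgeR) and Fosb (-0.44, adjusted p = 0.0861, edgeR) and the hippocampal field CA1 gene Wfs1 (-0.66, adjusted p = 0.0441, edgeR) were lower, and Fosb was not called without the libraries against their labels (-0.33, adjusted p = 0.193, edgeR). Of 11 hippocampal subfield genes in the female comparison, 2 were called higher and 1, Wfs1, lower, beside 3.17% of all tested genes. The 2 higher ones, named after their values were seen, were C1ql2 (0.60, adjusted p = 0.0957, edgeR) and Spink8 (0.35, adjusted p = 0.0944, edgeR). Neither was called without the libraries against their labels (adjusted p = 0.181 and 0.171, edgeR). Spink8 was also higher in both sexes together of Ts65Dn vs. euploid (0.37, adjusted p = 0.00329, edgeR). In males the microglial gene Aif1 was higher in Ts65Dn (0.56, adjusted p = 0.0761, edgeR) and in Ts65Dn;Brwd1+/- (0.57, adjusted p = 0.0656, edgeR) than in euploid mice, and the astrocyte gene Slc1a2 was lower in the latter comparison (-0.22, adjusted p = 0.0581, edgeR). With each library left out in turn, Fosb was called 8 of 24 times, and C1ql2 and Spink8 in females 11 of 24 each. Rgs4 was called 17 of 24 times, Aif1 13 and 15 of 23, Slc1a2 12 of 23 and Vipr2 15 of 47. The part of these genes in the members' values was not tested.

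Pairs of members were compared across the libraries of a group. In the adult, with group means removed, 20 of the 45 pairs of members had an adjusted permutation p under 0.05 for Pearson's r over the 47 libraries, and 25 over the 41 libraries that matched their labels. The share of passing pairs among all genes was not computed, and genes outside the list reached an r as high with single members, such as Mrpl51 with Sst (0.84). Gad1 varied with Gad2 (r = 0.71, rho = 0.82, both adjusted permutation p = 0.00015, r = 0.74 without the 2 farthest libraries) and with Slc32a1 (r = 0.69, rho = 0.75, both adjusted permutation p = 0.00015, r = 0.66 without the 2 farthest). Each of these raw p-values was 1e-05, the smallest that the permutations can give.

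Sst varied with Lhx6 (r = 0.73, rho = 0.72, both adjusted permutation p = 0.00015, r = 0.69 without the 2 farthest) and with Npy (r = 0.65, rho = 0.56, adjusted permutation p = 0.00045 and 0.00219, r = 0.50 without the 2 farthest). For Sst and Lhx6, r was 0.55 in males and 0.82 in females. Sst with Vip gave r = 0.57 and rho = 0.50 (adjusted permutation p = 0.0009 and 0.00442, r = 0.46 without the 2 farthest), and Vip with Npy r = 0.53 and rho = 0.44 (adjusted permutation p = 0.00327 and 0.0136, r = 0.44 without the 2 farthest). Pvalb with Vip gave r = 0.62 and rho = 0.50 (adjusted permutation p = 0.00045 and 0.004, r = 0.53 without the 2 farthest), with r = 0.37 in males and 0.78 in females. Slc32a1 with Calb2 gave r = 0.68 and rho = 0.62 (adjusted permutation p = 0.00045 and 0.000787, r = 0.60 without the 2 farthest). Gad2 with Cck was the only negative pair among the 20 (r = -0.49, rho = -0.48, adjusted permutation p = 0.00663 and 0.00709, r = -0.43 without the 2 farthest). Gad1 with Sst had r = -0.01 over the 47 libraries and r = 0.44 over the 41 (adjusted permutation p = 0.0196), so that this pair rested on which libraries were kept.

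In the E17.5 forebrain 5 pairs passed, and the pairs of Sst were not among them. Npy varied with Lhx6 (r = 0.87, rho = 0.73, adjusted permutation p = 0.0198 and 0.0865, r = 0.68 without the 2 farthest), Gad1 with Gad2 (r = 0.73, rho = 0.74, adjusted permutation p = 0.0278 and 0.0865, r = 0.57 without the 2 farthest) and Cck with Npy (r = 0.70, rho = 0.53, adjusted permutation p = 0.0219 and 0.176, r = 0.53 without the 2 farthest). None of these 3 passed by rho. The difference between the ages was not tested.

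**Figure D5:**
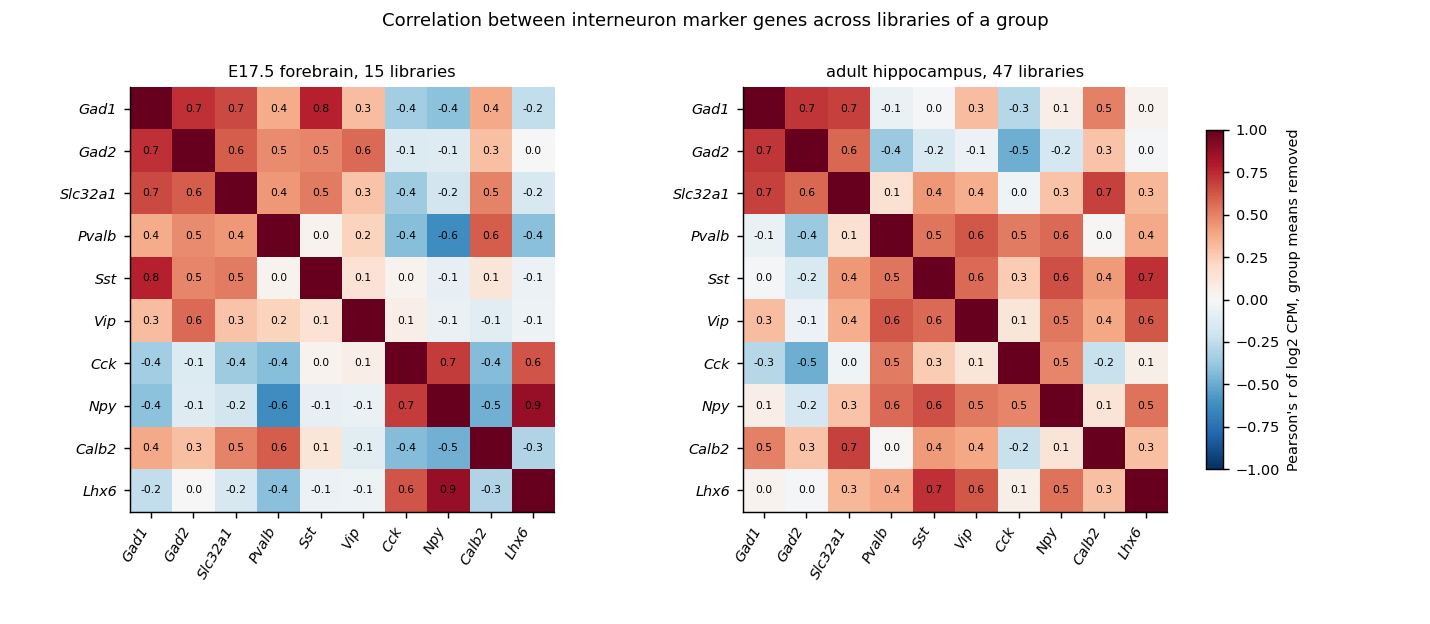
Pearson's r of log2 CPM between members, with group means removed, across 15 E17.5 libraries and 47 adult libraries (red positive, blue negative). In the adult the Gad1, Gad2 and Slc32a1 block and the block of Sst, Npy, Vip and Lhx6 are red, with r = 0.73 for Sst and Lhx6. Pvalb is also red with Sst (0.54), Vip (0.62) and Npy (0.56). At E17.5 the strongest pair is Npy and Lhx6 at 0.87.

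Members also varied with markers of other cells in the adult. Pvalb rose with the excitatory list (r = 0.53, rho = 0.58, adjusted permutation p = 0.0139 and 0.0104, r = 0.51 without the 2 farthest), and Calb2 fell with it (r = -0.52, rho = -0.52, adjusted permutation p = 0.0139 and 0.0125, r = -0.46 without the 2 farthest). Slc32a1 rose with striatal projection neuron genes (r = 0.51, rho = 0.54, adjusted permutation p = 0.0232 and 0.0125, r = 0.47 without the 2 farthest). Gad1 fell with the oligodendrocyte list (r = -0.46, rho = -0.43, adjusted permutation p = 0.0484 and 0.0461, r = -0.57 without the 2 farthest). Of the 160 relations between members and lists over both ages, 12 had an adjusted permutation p under 0.05 for r.

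The genes most like each member over the 47 adult libraries, by Pearson's r of log2 CPM with group means removed and as a description only, included further genes of GABAergic neurons. For Gad1 they were Gng4 (0.89), Gpsm1 (0.88) and Dlx1 (0.86), for Gad2 Sox1ot (0.81), Dlx1 (0.73) and Lin7a (0.73), and for Slc32a1 Dlx6 (0.85), Sp9 (0.83) and Dlx2 (0.82). Dlx1, Dlx2, Dlx6 and Sp9 encode transcription factors of the GABAergic lineage. For Sst they were Mrpl51 (0.84), Ndufs8 (0.83) and Mfge8 (0.83), for Npy Ndufaf3 (0.70), Srm (0.70) and Minpp1 (0.69), and for Vip Rnd1 (0.84), Mgst3 (0.82) and Rnf227 (0.82). Mrpl51, Ndufs8 and Ndufaf3 encode mitochondrial proteins. For Pvalb they were Fabp3 (0.82), 1110008P14Rik (0.79) and Dok5 (0.79), and for Calb2 Tpbg (0.84), Kcnh2 (0.84) and Tmem163 (0.82). For Cck they were Csnk1g2 (0.76), Calm3 (0.75) and Eif4a1 (0.74), and for Lhx6 Wnt7b (0.83), Ssbp3 (0.82) and Aloxe3 (0.79).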

How the data were processed

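Poly(A) RNA of 62 samples was sequenced as single, unstranded reads, so reads of overlapping or antisense genes cannot be told apart. The authors deposited raw counts per gene, 1 table for each age, made with HISAT2 2.1.0 and featureCounts 2.0.1 per the labels' processing notes, with mm10 and mm9 among the builds named. Depth is given with the samples. Samples were grouped by GEO's labels, and no label says whether a replicate number pairs animals. No 2 libraries were alike within sampling noise (lowest chi-square per degree of freedom 8.84). The fewest reads stood behind Pvalb and Vip at E17.5.

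The test was edgeR 4.0.16 (R 4.3.3), quasi-likelihood and robust, over all genes that passed filterByExpr (minimum count 10), with TMM scaling,, at an adjusted p under 0.1. E17.5, each adult sex, both sexes with an interaction, and female against male Ts65Dn were fitted separately. The procedure was checked on simulated data. Alternatives were DESeq2 1.42.0, RUVr factors, upper-quartile scaling, no filter, an adjusted p under 0.05, replicate blocks, covariates, other sample sets and leaving out libraries. RPKM used exon-union lengths. Correlations used log2 CPM (prior count 0.5) and 100000 permutations within groups. The intervals were computed from the fold change and test statistic of edgeR's fit. The p-values set a difference against the spread between these samples.

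The members and the 15 other lists were chosen with earlier results of these data known. All members were named in the text. Other listed genes were named where called with the 3 smallest p-values in a direction of a comparison, except where the text says otherwise. The 3 genes with the highest r per member were named.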

Additional observations from a re-analysis of the deposited data

Results flagged for a closer look

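In 5 of 80 groups of member values, the lowest or highest library stood apart from its group by Dixon's test, and chance alone gives about 1 in 20. Gad1 was lowest in E17.5 euploid embryo 4, at 133.7 CPM against 179.5 to 218.6 CPM in the others. Lhx6 was lowest in E17.5 Ts65Dn embryo 7, at 9.06 CPM against 45.4 to 119.0 CPM. Gad1 was highest in female euploid B85, a library against its label, at 769.6 CPM against 305.9 to 373.5 CPM. Calb2 was lowest in female Ts65Dn B56, at 17.6 CPM against 35.1 to 62.5 CPM. Sst was highest in female Ts65Dn;Brwd1+/- B176, at 247.6 CPM against 113.5 to 162.4 CPM.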

How the results depend on the processing

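Members called rose above 0 mainly with RUVr factors. DESeq2 with 3 factors called 4 members at E17.5, 2 in male Ts65Dn;Brwd1+/- vs. Ts65Dn and vs. euploid, in both female comparisons with euploid, in Ts65Dn;Brwd1+/- vs. Ts65Dn of both sexes and in the sex difference of Ts65Dn vs. euploid, and 1 in the other comparisons that gave any, while it called 24.8% of all genes at E17.5 and 1.42% to 25.6% in the adult. edgeR with 1, 2 or 3 factors called 3 members each at E17.5, where they called 9.16%, 16.6% and 22.1% of all genes. In the adult these fits called 1 or 2 members where they called any. Over all adult comparisons, with or without a called member, they called 0% to 23.5% of all genes. DESeq2 without factors and all 6 adult groups in 1 fit each called 1 member in female Ts65Dn;Brwd1+/- vs. euploid, beside 1.77% and 1.89% of all genes. Leaving out a library gave 0 to 1 called members in the E17.5, male and female Ts65Dn vs. euploid and female Ts65Dn;Brwd1+/- vs. euploid comparisons. It gave 0 elsewhere. Each such call of a member named above left out the library of its group that lay farthest against the difference. The share of all genes called in those fits is not given. Over single members 1257 values kept their call and direction, 59 became called and 24 uncalled values changed sign, 13 of these without the libraries against their labels. A replicate block at E17.5 called 0 members. The replicate numbers did not pair the embryos, since samples of equal number correlated at -0.13 to 0.23 and 1 of 7 best with its own number. The embryos' titles also carry a number shared by embryos of both genotypes, whose meaning the labels do not give. With it as a block all 10 members kept their call and direction. With the sex-linked gene Ddx3y as a covariate 9 did, and 1 uncalled value changed sign. Pvalb and Vip at E17.5 rested on the fewest reads, and whether depth limited their tests was not tested.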

Other observations

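A list of 8 activity-regulated genes, which neurons switch on when they fire, held 2 called genes in female Ts65Dn vs. euploid, Fos and Fosb, and Fosb was not called without the libraries against their labels (adjusted p = 0.193, edgeR). In that comparison 7 of the 8 had an unadjusted p under 0.05, as did 15.4% of all tested genes, and the median of the list was -0.49 on the log2 scale. In female Ts65Dn;Brwd1+/- vs. Ts65Dn, 0 were called by edgeR and 7 had an unadjusted p under 0.05, as did 3.52% of all tested genes, with a median of 0.58. Both comparisons share the female Ts65Dn libraries. At E17.5, Gad2 rose with the same list across libraries with group means removed (r = 0.80, rho = 0.81, adjusted permutation p = 0.0232 and 0.0208, r = 0.66 without the 2 farthest libraries).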
